A study of Mus musculus with 6 samples.

Results

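Lineages A and B are the families of PB3 mouse mammary tumour cells that carry the lentiviral barcodes bc14-4-bc30-67693 (A) and bc14-18-bc30-67263 (B). Their members are all cells for which the authors' latest barcode call names 1 of these barcodes: 582 cells of A and 135 of B, so 717 of the 27342 cells with 1 called barcode and of the 51785 deposited cells. Both barcodes were chosen by their measured values in the same cells, as leading barcodes of the authors' cluster 9 under paclitaxel. Their shares after paclitaxel and their place in cluster 9 are therefore a description, with no test. The name fits A, which has the most paclitaxel cells in cluster 9 of any barcode, 567. It fits B less well: B has 100 such cells and ranks 3rd, after bc14-33-bc30-33994 with 103, although after 1 round B was first with 68.

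The cells come from 10 conditions in 6 libraries and 3 runs, 1 library a condition or 3 hashtagged conditions in 1 library. Run 1 holds untreated cells (UNT cells) and cells after 4 rounds of eribulin (ERI4 cells), and run 3 holds nuclei of the same kinds (UNT nuclei, ERI4 nuclei). Run 2 holds PAC1, PAC2 and PAC3, which are 1, 2 and 3 rounds of paclitaxel captured in 1 library, and ERI1, ERI2 and ERI3, the eribulin counterparts captured in another. In the first paclitaxel round the dose was 100 nM over 72 h, and in each later round 250 nM. The labels give 48 h of recovery after the first round where another followed. After the last round they name a recovery of no stated length for PAC1 and PAC3, and none for PAC2. Each eribulin round was 500 nM over 72 h, followed by 48 h without drug. All conditions are 1 barcoded cell line in culture, and the untreated samples carry the barcodes too.

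A lentiviral barcode integrates into the genome of the cell it enters and is copied at each division, so cells with the same barcode are taken to descend from 1 marked cell. It is transcribed, and is read together with the cell's RNA. Paclitaxel stabilises microtubules and eribulin blocks their growth. Both act on the mitotic spindle and hold dividing cells in mitosis. Under such a drug a lineage's share can change with survival, with division, or with both, and a share of captured cells does not separate them.

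Each barcode is 48 bases long in the deposited list of 10000000 barcodes: a first part of 14 bases in 100 versions, the joining bases tggt, and a second part of 30 bases in 100000 versions. Each second part is made of 15 pairs of bases from 4 kinds. The sequences of both lineages are shown to let a reader see how far apart the tags are, with capitals at the positions where A and B differ.
A, bc14-4-bc30-67693: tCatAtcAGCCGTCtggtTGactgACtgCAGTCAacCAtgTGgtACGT
B, bc14-18-bc30-67263: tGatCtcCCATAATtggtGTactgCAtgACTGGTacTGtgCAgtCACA
They differ at 27 of the 48 bases, 9 in the first part and 18 in the second. Of the 697 barcodes called in any cell, the nearest to A and the nearest to B are shown next, with capitals where each differs from that lineage's own tag.
Nearest to A, bc14-48-bc30-59237: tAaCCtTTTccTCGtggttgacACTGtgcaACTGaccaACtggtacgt
Nearest to B, bc14-18-bc30-28871: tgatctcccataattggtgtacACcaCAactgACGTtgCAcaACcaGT
The first differs from A at 19 bases. The second shares B's whole first part and differs at 14 bases of the second part. No other called barcode has the second part of either lineage, so both tags stand well away from the other called ones.

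Sharing a first part did not go with sharing a cluster. With B's first part, bc14-18-bc30-28871 had 106 cells, 54 of them in PAC1 and 51 in cluster 7, and 1 in cluster 9. The other barcodes of at least 20 cells with that first part were bc14-18-bc30-19605 (121 cells, 2 in cluster 9), bc14-18-bc30-99249 (53 cells), bc14-18-bc30-83813 (29 cells) and bc14-18-bc30-4395 (24 cells). The last 3 had 0 cells in cluster 9. With A's first part, bc14-4-bc30-15682 had 135 cells, 72 of them UNT cells, 68 in cluster 5 and 2 in cluster 9. The other, bc14-4-bc30-45084, had 25 cells and 0 in cluster 9.

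No condition has a second library and the cells of 1 sample are not replicates, so conditions were not tested against each other. The intervals in parentheses are exact Clopper-Pearson 95% intervals for shares and order-statistic 95% intervals for medians, and the limit beside a share of 0 is the share that 3 cells would make. They cover counting error only. Barcoded cells, the denominator of the shares, numbered 5087 in UNT cells, 1792 in PAC1, 569 in PAC2, 2286 in PAC3 and 4935 in UNT nuclei. Median depth over the cell conditions ran from 11266.5 to 20877 UMIs (counted RNA molecules) per cell, and the nuclei had medians of 3427.5 (UNT) and 2089 (ERI4). Paclitaxel and untreated samples were made in different runs, so they are set side by side only as levels. Between libraries of runs 1 and 2, 12 to 26 cell barcodes were shared by each pair, and 134 by the 2 nuclei libraries, and 8 member cells had such a barcode.

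With each round of paclitaxel lineage A had a larger share of the barcoded cells, while B was somewhat higher in PAC2 than in PAC1 and nearly absent in PAC3. A made up 52 of 1792 barcoded PAC1 cells, 2.90% (2.18 to 3.79), then 41 of 569 PAC2 cells, 7.21% (5.22 to 9.65), and then 487 of 2286 PAC3 cells, 21.3% (19.6 to 23.0). None of these 3 intervals overlap, but A was chosen partly by these shares, so this is a description and no test. The share of A was 2.48 times that of the round before in PAC2 (1.61 to 3.81) and 2.96 times in PAC3 (2.15 to 4.17), so that PAC3 stood 7.34 times above PAC1 (5.51 to 9.97).

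Lineage B made up 71 PAC1 cells, 3.96% (3.11 to 4.97), and 37 PAC2 cells, 6.50% (4.62 to 8.85). In PAC3 it was called in 3 cells, 0.131% (0.0271 to 0.383). PAC2 stood 1.64 times above PAC1 (1.07 to 2.48), although the intervals of the 2 shares overlap, and PAC3 was at 0.0202 times the PAC2 share (0.00398 to 0.0637). Of the cells of both lineages together, A therefore made up 42.3% in PAC1 (33.4 to 51.5), 52.6% in PAC2 (40.9 to 64.0) and 99.4% in PAC3 (98.2 to 99.9). Their shares were near each other for 2 rounds and parted in round 3. Among the 31 barcodes with 20 or more paclitaxel cells A ranked 7th in PAC1 and 2nd in PAC2 and PAC3, and B ranked 3rd, 4th and 19th.

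Of these 31 barcodes, 5 (16.1%) had a share at least 2 times higher in PAC3 than in PAC1, A among them, and 17 (54.8%) a share at least 2 times lower, B among them. The choice of A and B used this contrast, so nothing is read from their being among these. The largest PAC3 share belonged to bc14-76-bc30-49517, named after its values were seen: it went from 9.15% in PAC1 to 22.0% in PAC2 and 48.9% in PAC3 and had 13 of its 1407 paclitaxel cells in cluster 9. A was thus the second most common of the barcodes after 3 rounds, behind 1 that lay elsewhere.

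Within cluster 9 the share of A was again higher in each round, while that of B was not higher in PAC2 than in PAC1. The cluster as a whole held 22.6% of all PAC1 cells, 39.6% of PAC2 and 38.3% of PAC3. A held 47 of the 437 barcoded cluster 9 cells in PAC1, 10.8% (8.01 to 14), 38 of 236 in PAC2, 16.1% (11.7 to 21.4), and 482 of 866 in PAC3, 55.7% (52.3 to 59.0). B held 68 of these cells in PAC1, 15.6%, 31 in PAC2, 13.1%, and 1 in PAC3, 0.115%. Thus the higher share of B among all barcoded cells in PAC2 has no counterpart inside the cluster. Both lineages together filled 26.3% of the barcoded cluster 9 cells in PAC1 (22.2 to 30.7) and 29.2% in PAC2 (23.5 to 35.5), and 55.8% in PAC3 (52.4 to 59.1). For the pair the share thus differed between rounds 2 and 3, and the higher share in round 3 was that of A.

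How well the barcodes could be read differed between the lineages. The median barcode count of a called cell was 7 in A in PAC1, 9 in PAC2 and 7 in PAC3, but 2 in B in PAC1 and 4 in PAC2. In cluster 9, a random cell of A had the higher barcode count than a random cell of B in 86.4% of pairs in PAC1 and 84.5% in PAC2. A single barcode count was behind the call in 22 of 71 B cells in PAC1, 31.0% (20.5 to 43.1), against 3 of 52 A cells, 5.77% (1.21 to 15.9), and 10.6% of all other barcoded cells. Calls of B thus rested on fewer counts than calls of A. Cluster 9 cells called negative numbered 133 of 662 in PAC1 (20.1%), 61 of 336 in PAC2 (18.2%) and 79 of 1070 in PAC3 (7.38%). Those called doublets or multiplets numbered 92 in PAC1 (13.9%), 39 in PAC2 (11.6%) and 125 in PAC3 (11.7%). How many cells of either kind carried the barcode of A or B was not tested.

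Before any drug, the few cells found of either lineage lay almost without exception in cluster 9, which was then rare. In UNT cells it held 137 of 11061 cells, 1.24% (1.04 to 1.46), and in UNT nuclei 170 of 9916, 1.71% (1.47 to 1.99). Lineage A was called in 2 UNT cells, 0.0393% of the barcoded (0.00476 to 0.142), and in 0 of 4935 UNT nuclei, where 3 nuclei would be 0.0608%. Lineage B was called in 6 UNT cells, 0.118% (0.0433 to 0.257), and in 18 UNT nuclei, 0.365% (0.216 to 0.576). All 8 UNT cells and 16 of the 18 nuclei lay in cluster 9. The other 2 nuclei lay in clusters 0 and 1.

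Seen from the cluster, both lineages made up 8 of the 30 barcoded UNT cells in cluster 9, 26.7% (12.3 to 45.9), and 0 of the 5057 barcoded UNT cells outside it. In UNT nuclei B made up 16 of 66 in cluster 9, 24.2% (14.5 to 36.4), against 2 of 4869 outside it, 0.0411% (0.00497 to 0.148). Of cluster 9, 21.9% of UNT cells and 38.8% of UNT nuclei had 1 called barcode, against 66.0% in PAC1 and 70.2% in PAC2. The parts that both lineages held of barcoded cluster 9 had overlapping intervals in UNT cells, UNT nuclei, PAC1 and PAC2. The interval in UNT cells is too wide to show that they were alike. These are levels from 3 runs, and 17 different barcodes were called in cluster 9 in UNT cells and 34 in UNT nuclei. In UNT nuclei it was B alone.

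The untreated calls in cells and in nuclei rest on different evidence. Each of the 8 UNT cells held 2 to 12 detected barcodes, which is common in that library: the other barcoded UNT cells had a median of 3, and 12.6% of them had 1. The depth of the 8 ran from 17213 to 60402 UMIs, and 7 of the 8 lay above the median of the other barcoded UNT cells, 20515 UMIs. An earlier call by the authors kept only 2 of the 8 as cells of 1 barcode, 1 of A and 1 of B. The part of droplets with more than 1 cell in these 8 was not tested. Of the nuclei, 16 of 18 had 1 detected barcode, after 1 was subtracted from the deposited number in every nucleus, against 78.1% of the other barcoded UNT nuclei. All 18 were kept by the earlier call, 8 of 18 lay above the median of 3427.5 UMIs, and their barcode counts ran from 179 to 532. Nothing was subtracted from these counts, and those of the other barcoded UNT nuclei ran from 153 to 884. How many of the counts came from the barcode of B was not tested. The original call gave B a larger share of UNT nuclei, 0.728%.

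The B nuclei and the member cells of cluster 9 do not lie together in the authors' UMAP. The 16 B nuclei in cluster 9 lay between 4.42 and 5.84 on the first axis (median 4.85), and the 675 member cells in cluster 9 between -5.81 and -2.79 (median -5.04). All 170 UNT nuclei of cluster 9 lay on the same side as the B nuclei, at 4.23 to 7.76. All 137 UNT cells of cluster 9 ran from -5.40 to 3.15 (median -4.82), and so reached nearer to the nuclei than any member cell. Other cells of cluster 9 outside the lineages were not compared. For the members, the shared cluster number therefore joins 2 separate groups of points, and the nuclei result is about the authors' cluster label.

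Under paclitaxel, cluster 9 took nearly all cells of both lineages. For A these were 90.4% of its cells in PAC1 (79.0 to 96.8), 92.7% in PAC2 (80.1 to 98.5) and 99.0% in PAC3 (97.6 to 99.7). For B they were 95.8% in PAC1 (88.1 to 99.1) and 83.8% in PAC2 (68.0 to 93.8). The intervals of A and B overlap in both rounds. Of the 3 B cells of PAC3, 1 lay in cluster 9, with 4 barcode counts and 1 detected barcode. Another, in cluster 2, had 2 detected barcodes and 19073 UMIs, and the last, in cluster 6, was called from 1 barcode count.

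Outside cluster 9 lay 13 paclitaxel cells of A and 11 of B. Of the A cells, 11 of 13 had more UMIs than the median A cell of the same round inside the cluster, and of the B cells 5 of 11. One detected barcode was found in 8 of the 13 A cells, against 78.7% of A cells inside the cluster in PAC1, 78.9% in PAC2 and 92.7% in PAC3, and in 9 of the 11 B cells, against 88.2% in PAC1 and 96.8% in PAC2. Greater depth thus went with being outside the cluster in A. In B the cells above that median were 2 of 3 in PAC1 and 1 of 6 in PAC2. In PAC3 they were 2 of 2, set against 1 cell inside the cluster. The part of depth was not tested. Where a round had at least 20 cells of a lineage, the only clusters besides 9 that held at least 5% of them were cluster 6, with 3 of 52 A cells in PAC1 (5.77%), and cluster 11, with 4 of 37 B cells in PAC2 (10.8%). Those 4 B cells made up 4 of the 16 PAC2 cells in cluster 11. Each had 1 detected barcode, 8472 to 10555 UMIs, and a pseudotime of 11.3 to 12.1, far below the lineage's median. They had 1095 to 2641 genes, against a median of 3844 in all B cells of PAC2. Their mitochondrial share was 0.158 to 2.21%, against a median of 2.64%.

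Inside cluster 9 the lineages lay largely intermixed. Among the 30 nearest barcoded neighbours of the same round and cluster, an A cell had 9.93% A cells in PAC1 where 10.6% were A, 16.0% in PAC2 where 15.7% were, and 56.9% in PAC3 where 55.6% were. A B cell had 21.2% B cells in PAC1 where 15.4% were B, and 14.5% in PAC2 where 12.8% were. In PAC1, B cells therefore met their own kind somewhat more often than its share of the cluster. A cells met their own kind about as often as its share of the cluster. Over all clusters an A cell in PAC3 had 55.9% A neighbours where 21.3% of the barcoded cells were A.

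Lineages A and B belong to a group of paclitaxel barcodes with nearly all cells in cluster 9. Of the 31 barcodes with at least 20 cells, 13 had at least 80.5% of their cells in cluster 9 and the 18 others at most 9.09%, with none between. By the overlap of their cluster shares over PAC1 to PAC3, the barcodes most like A were bc14-2-bc30-90226 (98.2%), bc14-13-bc30-29729 (98.2%) and bc14-86-bc30-69871 (97.6%). Those most like B were bc14-65-bc30-62538 (94.7%) and bc14-12-bc30-55481 (94.0%), and then, level with each other, bc14-35-bc30-28143 and bc14-58-bc30-9763 (93.7%). A and B overlapped by 91.6%. The overlap is over few clusters and mostly states that cluster 9 leads. Of the 13 barcodes, A and B included, 4 had a share at least 2 times higher in PAC3 than in PAC1, 2 at least 2 times lower, and 7 neither. Of the 18 others, 1 had a share at least 2 times higher, 15 at least 2 times lower, and 2 neither. The limit of 20 cells counted the 3 rounds together, so a barcode could pass it through 1 round in which it was high. Of the others, bc14-21-bc30-67560 had 38 cells in PAC1, 1 in PAC2 and 0 in PAC3. A and B were also chosen with this contrast. Whether lower shares went with lying outside cluster 9 is therefore not read from these counts. Besides A, bc14-13-bc30-29729 is an example of a higher share, from 7 cells in PAC1 (0.391%) and 4 in PAC2 to 88 in PAC3 (3.85%).

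Pseudotime, the authors' distance along a path that starts at untreated cells, placed both lineages at similar medians and moved with the round. In cluster 9, an A cell was higher than a B cell in 60.7% of pairs in PAC1. In PAC2 it was 41.9%, where most cells of both lineages held nearly the same value. In A the median was 22.0 in PAC1 (21.7 to 22.1), 23.9 in PAC2 and 22.0 in PAC3, and in B it was 21.7 in PAC1 (21.5 to 22.0) and 23.9 in PAC2. The other barcoded cells of cluster 9 had 21.8, 23.9 and 22.0 in the 3 rounds. In cluster 9, a PAC2 cell was higher than a PAC1 cell in 81.5% of pairs for A and 90.2% for B. For PAC3 against PAC1 it was 52.0% for A, close to even. The pseudotime of A was thus higher after 2 rounds and back at its first level after 3, while its share of the cells was higher at each step.

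The medians hide that cells pile up at single values. The highest value of any member, 23.88 within 0.01, was held by 4 of 52 A cells in PAC1, 28 of 41 in PAC2 (68.3%) and 18 of 487 in PAC3 (3.70%). Of B it was held by 4 of 71 cells in PAC1 and 30 of 37 in PAC2 (81.1%), and by 4 of 6 UNT cells and 13 of 18 UNT nuclei (72.2%). A second value, 21.98, was held by 78 A cells in PAC3 (16.0%), 5 in PAC1 and 0 in PAC2. Other barcoded cells of cluster 9 did the same, with 6.83%, 91.0% and 6.27% at 23.88 in PAC1, PAC2 and PAC3. Most untreated members thus had a pseudotime far above the medians of the other barcoded UNT cells, 7.59, and UNT nuclei, 13.5. Untreated cells are nevertheless the stated root. Untreated cluster 9 was alike outside the lineages, with medians of 23.8 in 22 other barcoded UNT cells and 23.9 in 50 UNT nuclei. One B nucleus in cluster 9 had 9.21. The path runs further than any member, and in cluster 9 itself cells of ERI4 and ERI3 reached 28.2 and 31.4. PAC2 differs from PAC1 and PAC3 in its stated recovery and in depth, with condition medians of 16775 UMIs against 11674 and 12775.5, and the part of either in the pseudotime was not tested.

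The cell cycle scores set the lineages apart little. A cell was put in G1 where both deposited scores were at or below 0, and otherwise in the phase with the higher score. Of A, 42.3% of cells were in G1, 19.2% in S and 38.5% in G2M in PAC1. In PAC2 these were 31.7%, 19.5% and 48.8%. In PAC3 they were 39.8% (35.5 to 44.3), 15.6% (12.5 to 19.1) and 44.6% (40.1 to 49.1). Other barcoded cells had 36.7%, 24.4% and 38.9% in PAC1. They had 38.1%, 18.7% and 43.2% in PAC2, and 36.6%, 18.8% and 44.6% in PAC3. Every round thus held cells with S or G2M scores above 0, in A as in the other barcoded cells. A recovery is named for PAC1 and PAC3, and whether cells divided in the presence of the drug was not tested.

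Of B, 52.1% of cells were in G1 (39.9 to 64.1), 15.5% in S and 32.4% in G2M in PAC1, and 48.6%, 10.8% and 40.5% in PAC2. In cluster 9 alone the G1 share was 51.5% for B, 40.4% for A and 41% for other barcoded cells in PAC1, and 45.2%, 28.9% and 35.3% in PAC2. B had the higher G1 share in both rounds, but in each round its interval overlaps that of A. The median G2M score in cluster 9 in PAC1 was -0.23 for B and -0.03 for A, and the A cell was the higher in 60.5% of pairs. In that round and cluster A cells were also deeper, with 12157 UMIs and 3528 genes at the median against 9756.5 and 2946 in B, and the part of depth in the scores was not tested.

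The share of UMIs from mitochondrial genes, often used as a sign of damaged cells, was low and alike in both lineages. The median was 2.64% for A in PAC1, 2.50% in PAC2 and 2.22% in PAC3 (2.15 to 2.28), and 2.70% for B in PAC1 and 2.64% in PAC2. In cluster 9 in PAC3 it was 2.22% for A and 2.25% for other barcoded cells. The 18 B nuclei of UNT had a median of 10.1%, on another assay. One member cell, a B cell of PAC2 at 42.5%, lay above 20%, and 2 members had under 1000 genes. Median depth followed the round: 13007.5 UMIs in PAC1, 17970 in PAC2 and 12671 in PAC3 for A, and 9892 in PAC1 and 17160 in PAC2 for B.

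No cell of either lineage was called in any eribulin condition. In ERI4 cells this is 0 of 6725 barcoded cells, an upper limit of 0.0446%, and in ERI4 nuclei 0 of 1495, an upper limit of 0.201%. Barcodes missing from the shorter list described next were called in both, in 41 ERI4 cells and 31 ERI4 nuclei. Cluster 9 was small there, with 0.386% of ERI4 cells and 0.195% of ERI4 nuclei. For A the limit in ERI4 cells lies above its share in UNT cells, so a loss of A under 4 rounds of eribulin was not detectable at this depth. For B the limit in ERI4 cells lies at about the lower bound of its share in UNT cells. The exact interval of B for 0 of 6725 ERI4 cells reaches 0.0548%. That overlaps the interval of B in UNT cells, 0.0433 to 0.257%, so a loss of B was not shown in cells. In nuclei, the exact interval of B for 0 of 1495 ERI4 nuclei reaches 0.246%. It overlaps the interval of B in UNT nuclei, 0.216 to 0.576%, with 1 library each, so a loss of B was not shown there.

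For ERI1, ERI2 and ERI3 the count of 0 cannot be read as absence. A second, shorter list of 185 lentiviral barcodes was deposited for run 2, and neither A nor B is on it. All 4453 barcoded cells of ERI1 to ERI3 carry barcodes on that list. Of the 4647 barcoded cells of PAC1 to PAC3, the other library of run 2, 1593 carry barcodes that are not on it, and 65.7% carry listed ones. In UNT cells 63.4% of the barcoded cells carry listed barcodes, and in UNT nuclei 64.1%. Which list each library was counted against is not given in the sources used here, and a barcode that was not on the list could not be called.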

How the data were processed

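No gene expression matrix was analysed here. Cell Ranger 3.1.0 (run 1), Cell Ranger 4.0.0 (run 2) and Cell Ranger ARC 1.0.0 (run 3) made the counts, Seurat 3.1.4 the cell filter, clusters and UMAP, and Monocle3 the pseudotime, per the submitters' processing notes and design text. The authors deposited 1 table of cells, which holds counts (UMIs, genes, barcode counts and detected barcodes per cell, not normalized), percent values (mitochondrial UMIs) and score columns (pseudotime, S and G2M, on arbitrary scales; none of the phase scores for nuclei). Barcode sequences come from the deposited feature lists. How barcodes were called is not given in the sources used here.

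The members, lists and measures were chosen with earlier results of these data known. Barcode names were compared without hyphens, since the UNT nuclei lack them. In nuclei 1 was subtracted from the number of detected barcodes, because every nucleus has at least 1. No cell was removed and no doublet caller was run. Medians were given over at least 20 cells, except where a smaller number is stated beside them. Clusters are named where they hold at least 5% of a lineage in a round. Other barcodes are named where they share a sequence part in at least 20 cells, or are the 3 with the highest overlap of cluster shares. Neighbours are the 30 nearest in the UMAP among barcoded cells. Ratios of shares have exact conditional intervals. Alternatives were the 2 earlier barcode calls, cells with exactly 1 detected barcode, a mitochondrial limit of 20%, at least 1000 genes, all cells as denominator, a score threshold of 0.05 and cluster 9 alone. The calculations used Python 3.11.15 with numpy 2.4.6, pandas 2.3.3, scipy 1.17.1 and scikit-learn 1.9.0, and were tested on simulated data.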

Additional observations from a re-analysis of the deposited data

Results flagged for a closer look

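In 3 of 9 comparisons between paclitaxel rounds, lineages A and B moved in opposite directions by at least 1 percentage point each. The difference between the lineages was not tested, since each round is 1 sample. A and B were also chosen partly by their paclitaxel shares and their place in cluster 9, so these differences are a description. The comparisons of PAC3 with PAC1 and with PAC2 rest on the same PAC3 values. From PAC1 to PAC3 the share of barcoded cells rose by 18.4 percentage points in A and fell by 3.83 in B. From PAC2 to PAC3 it rose by 14.1 in A and fell by 6.37 in B. From PAC1 to PAC2 the share of a lineage's own cells in cluster 9 rose by 2.30 percentage points in A and fell by 12.0 in B, where the intervals of the 2 rounds overlap in both lineages.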

How the results depend on the processing

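Of 238 values recomputed for 43 results, 226 stayed within the counting interval of the first value and 12 moved outside it. Each is a single share or median, so no direction was compared. With all cells as denominator, A had 1.78% in PAC1, 4.83% in PAC2 and 17.4% in PAC3, and B had 2.42% in PAC1, 4.36% in PAC2 and 0.182% in UNT nuclei; the larger denominator lowers every share. With exactly 1 detected barcode, both A and B had a share of 0 in UNT cells. The first revision of the barcode call gave B 0.0395% in UNT cells, and the original call gave it 0.728% in UNT nuclei. With a score threshold of 0.05 the S share of A was 7.69% in PAC1 and 8.62% in PAC3. The causes of the shifts in the calls were not tested. No paired analysis was possible because every condition has 1 library and no test was made. Depth limits the untreated and eribulin shares, which rest on 0 to 18 cells.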
